A study of Caenorhabditis elegans with 2 samples.

Results

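ZFP-2 is a C2H2 zinc finger protein of Caenorhabditis elegans. Its binding was described here at the promoters of the protein folding machinery, the genes whose symbols begin with hsp-, dnj-, cct- or pfd-. The Ensembl annotation of WBcel235 holds 65 such protein-coding genes among 19973 on the nuclear chromosomes: 22 hsp-, 29 dnj-, 8 cct- and 6 pfd- genes. The rule uses symbols alone. ChIP-seq, the sequencing of DNA recovered with an antibody from sonicated chromatin, was done against GFP on whole hermaphrodites of strain OP534. All animals carried the unc-119(tm4063) mutation on chromosome III and wgIs534, an insertion that expresses ZFP-2 with a GFP-FLAG tag at its C terminus beside the endogenous gene. They were L4 larvae, sampled 52 hours after starved L1 larvae were released. The 2 libraries, numbered as biological replicates, form 1 group, so there is no contrast between conditions. No values from untagged animals were used here, and peak lists hold no expression values with which to check the tissue.

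Molecular chaperones keep proteins from aggregating and help them fold. Hsp70 proteins act in cycles with J-domain partners, which the dnj- genes encode, and with exchange factors such as Hsp110. Newly made actin and tubulin pass from prefoldin to the ring-shaped CCT chaperonin, whereas Hsp60 is the chaperonin of the mitochondrial matrix. Some chaperones are made at all times, others mainly under stress. The small hsp-16 genes are the classic heat-induced set of the worm, and the heat shock factor HSF-1 binds inverted GAA units, the heat shock element, in such promoters.

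A gene is called bound where the summit of a peak lay in a promoter window of 1000 bp upstream to 200 bp downstream of any of its annotated 5′ ends. The main list is the submitters' thresholded ce11 list, filtered by irreproducible discovery rate (IDR), with 642 nuclear peaks. Longer lists of the pooled data and of each replicate include background calls. Peaks are described by the authors' own signal, whose scale is not given in the sources used here, and by their rank within a list, with 1 the strongest. Read depth is unknown. The pooled list held 14640 nuclear peaks, replicate 1 18182 and replicate 2 17758.

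Summits of the thresholded list lay in the windows of 15 of the 65 genes (23.1%), where 2.79% of all protein-coding genes had one. Bound were hsp-1, hsp-3, hsp-60, hsp-90, hsp-110, cct-1, cct-7, cct-8, pfd-1, dnj-9, dnj-12, dnj-13, dnj-14, dnj-19 and dnj-28. By family these are 5 of 22 hsp- genes, 6 of 29 dnj- genes, 3 of 8 cct- genes and 1 of 6 pfd- genes. None of the 13 small heat shock protein genes was among them, and 4 of these have promoter windows made almost wholly of repeated sequence. For the other 9, a count of 0 allows a share of up to 33.3% (3 counts of the total, counting error only). Since no test was run over these chosen genes, the shares are a description.

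**Figure D1:**
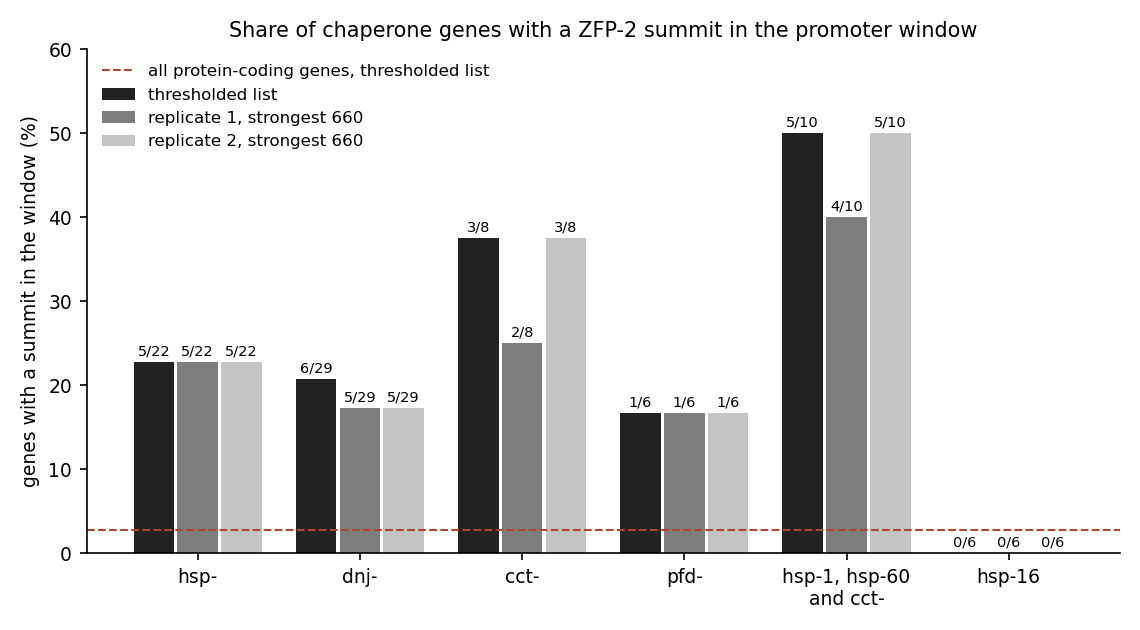
Percentage of genes in each group with a summit in the promoter window, in the thresholded list and in the 660 strongest peaks of each replicate, with counts above the bars. The dashed line is the 2.79% of all protein-coding genes. Each symbol family lies above it in all 3 lists, and the hsp-16 genes stay at 0 of 6.

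The sequences at the summits of 9 of the 10 bound genes with the strongest peaks are given, for the words they hold and for the contrast with hsp-16 discussed further on. That of hsp-3, which has no GAANNTTC at its summit, is left out because it overlaps an exon. Each runs 100 bases to either side of the summit, 5′ to 3′ on the strand of the named gene, from RefSeq's WBcel235 genome. Capitals mark GAANNTTC, a pair of inverted GAA units. It reads the same on both strands.
pfd-1 (chrIV:11149684-11149884, plus strand): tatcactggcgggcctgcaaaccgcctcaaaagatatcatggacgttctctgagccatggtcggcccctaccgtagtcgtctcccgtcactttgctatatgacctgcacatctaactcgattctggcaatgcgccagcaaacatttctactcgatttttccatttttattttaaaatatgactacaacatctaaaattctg
hsp-60 (chrIII:1619043-1619243, plus strand): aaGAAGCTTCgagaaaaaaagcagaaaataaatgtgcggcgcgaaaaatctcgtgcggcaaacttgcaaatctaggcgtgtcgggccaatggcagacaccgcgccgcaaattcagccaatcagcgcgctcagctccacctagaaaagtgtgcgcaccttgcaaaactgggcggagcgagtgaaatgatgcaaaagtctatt
hsp-1 (chrIV:17278502-17278702, plus strand): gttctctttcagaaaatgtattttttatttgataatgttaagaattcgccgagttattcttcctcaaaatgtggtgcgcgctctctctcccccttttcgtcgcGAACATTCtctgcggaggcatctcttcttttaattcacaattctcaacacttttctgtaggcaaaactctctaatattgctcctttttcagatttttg
cct-8 (chrIV:1094248-1094448, minus strand): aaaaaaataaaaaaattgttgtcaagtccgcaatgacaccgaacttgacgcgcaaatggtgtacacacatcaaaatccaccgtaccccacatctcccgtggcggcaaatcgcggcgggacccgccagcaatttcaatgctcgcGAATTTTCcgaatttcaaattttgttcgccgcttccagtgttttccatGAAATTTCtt
cct-1 (chrII:8185114-8185314, plus strand): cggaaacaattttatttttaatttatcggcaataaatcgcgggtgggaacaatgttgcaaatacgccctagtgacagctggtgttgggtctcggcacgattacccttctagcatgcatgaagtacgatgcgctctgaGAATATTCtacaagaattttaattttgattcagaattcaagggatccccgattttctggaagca
hsp-110 (chrIII:8447060-8447260, minus strand): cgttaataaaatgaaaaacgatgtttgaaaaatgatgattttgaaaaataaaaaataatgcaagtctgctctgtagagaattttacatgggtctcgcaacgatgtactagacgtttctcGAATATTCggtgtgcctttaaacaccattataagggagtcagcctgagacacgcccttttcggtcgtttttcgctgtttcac
dnj-13 (chrII:11545369-11545569, plus strand): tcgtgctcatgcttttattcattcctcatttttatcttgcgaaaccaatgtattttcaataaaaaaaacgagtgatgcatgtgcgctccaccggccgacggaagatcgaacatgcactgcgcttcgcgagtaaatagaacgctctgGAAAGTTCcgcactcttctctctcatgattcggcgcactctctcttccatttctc
dnj-9 (chrII:4851734-4851934, plus strand): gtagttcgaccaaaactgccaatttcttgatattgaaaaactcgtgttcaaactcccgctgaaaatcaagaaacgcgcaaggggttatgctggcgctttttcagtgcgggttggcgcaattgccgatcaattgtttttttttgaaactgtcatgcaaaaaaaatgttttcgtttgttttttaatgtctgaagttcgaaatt
hsp-90 (chrV:14685657-14685857, plus strand): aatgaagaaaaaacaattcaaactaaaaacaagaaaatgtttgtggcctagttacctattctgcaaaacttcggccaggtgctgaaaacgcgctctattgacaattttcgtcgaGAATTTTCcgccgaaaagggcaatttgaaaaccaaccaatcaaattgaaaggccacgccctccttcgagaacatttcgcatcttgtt
The next line is the stretch between the divergent 5′ ends of a small heat shock gene pair, which had no thresholded summit.
hsp-16.2 and hsp-16.41 (chrV:1804958-1805177, plus strand): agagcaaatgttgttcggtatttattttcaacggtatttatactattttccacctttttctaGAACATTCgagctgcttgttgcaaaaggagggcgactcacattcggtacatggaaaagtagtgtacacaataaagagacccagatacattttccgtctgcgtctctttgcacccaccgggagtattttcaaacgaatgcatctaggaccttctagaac

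The prefoldin gene pfd-1 had by far the highest signal of the set. Its peak on chromosome IV ran from 11149516 to 11150050 and ranked 13 of 642, with signal 1920. It ranked 14 in replicate 1 (signal 864) and 13 in replicate 2 (signal 1068). The summit lay between genes, 329 bp upstream of pfd-1 and 280 bp upstream of the divergent gene F01G4.6, which RefSeq names a mitochondrial phosphate carrier. The other prefoldin subunits differed from it. The strongest pooled peak of pfd-5 had signal 58.6, below the threshold, and pfd-2, pfd-3, pfd-4 and pfd-6 had no summit in any of the 4 lists. The genes of this complex thus did not all carry a peak. On the same strand, pfd-4 lies 24 bp and pfd-6 139 bp behind the next gene upstream, pfd-2 677 bp and pfd-3 6044 bp. Whether each has a promoter of its own in its window was not tested.

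Among the chaperonins, hsp-60 was next in rank, at 71 with signal 289. Its peak on III, from 1619038 to 1619237, ranked 64 in replicate 1 (signal 150) and 90 in replicate 2 (signal 133). The summit lay 599 bp upstream of hsp-60 and 214 bp upstream of Y22D7AL.10, for which RefSeq gives the product 10 kDa heat shock protein, the mitochondrial co-chaperonin that caps Hsp60. The genes for both components of the mitochondrial folding chamber thus lie on either side of this peak.

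The cytosolic CCT ring is built from the products of 8 genes. cct-8 (theta subunit) ranked 86 with signal 242, and its peak lay on IV from 1094130 to 1094565. It ranked 77 in replicate 1 (signal 126) and 108 in replicate 2 (signal 119). cct-1 (alpha subunit), on II, ranked 127 with signal 193, at 106 in replicate 1 (signal 96.9) and 174 in replicate 2 (signal 95.7). cct-7 (eta subunit), on V, was weaker, at rank 451 with signal 98.3. It stood at 842 in replicate 1 (signal 34.4) and at 401 in replicate 2 (signal 61.9). Of the other subunit genes, cct-4, cct-5 and cct-6 had pooled signals of 31.2 to 43.5, below the threshold, and cct-2 and cct-3 had no summit in any list. As with prefoldin, strong peaks were at some subunit genes and not at others.

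Of the 6 genes of the Hsp70 and Hsp110 family, hsp-1, hsp-3 and hsp-110 were bound. hsp-1 encodes the constitutive cytosolic Hsp70. Its peak on IV, from 17278549 to 17278679, ranked 76 with signal 279. Its ranks were 79 in replicate 1 (signal 124) and 67 in replicate 2 (signal 160). No other gene's window held this summit, which lay 357 bp upstream of hsp-1. hsp-70, which encodes a heat-induced cytosolic Hsp70, had no summit in the pooled list or in replicate 1, and its strongest in replicate 2 had signal 15.3 at rank 17457 of 17758. hsp-3 and hsp-4 both encode the BiP chaperone of the endoplasmic reticulum, hsp-4 being the one known for induction by unfolded proteins there. hsp-3, on X, ranked 152 with signal 174, at 252 in replicate 1 (signal 59.9) and 133 in replicate 2 (signal 108). Its summit was the closest to a 5′ end of all, 31 bp upstream. The strongest pooled peak of hsp-4 had signal 37.8 at rank 4419, 794 bp upstream. hsp-6, the mitochondrial Hsp70 gene, had signal 41.6 at rank 3337 and no summit in replicate 2. The exchange factor gene hsp-110, on III, ranked 145 with signal 182, at 131 in replicate 1 (signal 85.1) and 183 in replicate 2 (signal 92.4). The Hsp90 gene hsp-90, on V, ranked 219 with signal 142, at 162 in replicate 1 (signal 74.7) and 292 in replicate 2 (signal 70.04). hsp-75, whose product RefSeq describes as an HSP90-like ATPase, had no summit in any list.

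**Figure D2:**
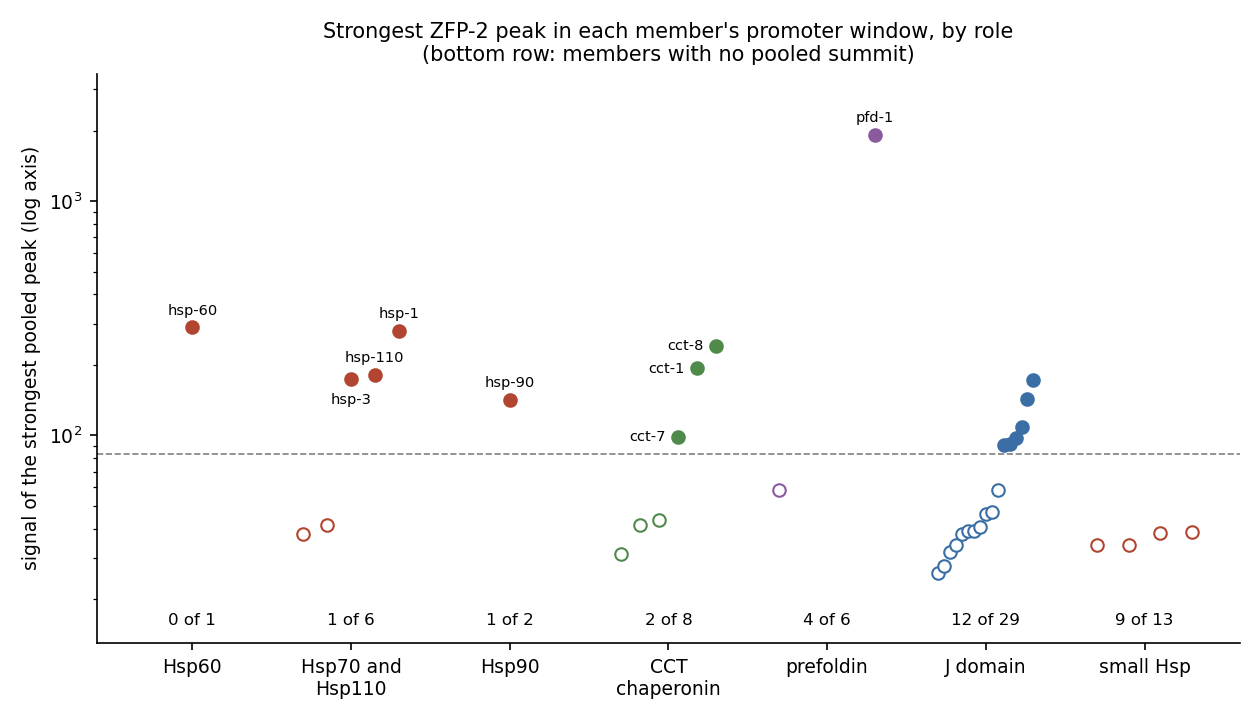
Signal of the strongest pooled peak in the promoter window of each of the 65 genes, by role, on a log axis. Filled points are in the thresholded list, open points are not, the dashed line is that list's lowest nuclear signal (83.8), and the bottom row counts genes with no pooled summit. pfd-1 stands alone at 1920, and no gene lies between signals of 58.8 and 91.3.

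Of the 29 J-domain genes 6 were bound, the strongest at rank 156. This was dnj-13, on II, which encodes a B-type partner of Hsp70. It had signal 172, with rank 138 in replicate 1 (signal 80.8) and 188 in replicate 2 (signal 91.1). dnj-9, also on II, ranked 215 with signal 143, and the replicates placed it at 172 (signal 72.5) and 325 (signal 66.5). The other 4 ranked from 367 to 534: dnj-28, dnj-12, dnj-19 and dnj-14. dnj-28 had signal 109, and a second summit of signal 88.5 lay in its window. The stronger of the summits ranked 891 in replicate 1 (signal 33.5) and 251 in replicate 2 (signal 76.0), and another replicate 1 summit in the window ranked 503 (signal 42.7). dnj-12 and dnj-19 encode A-type partners of Hsp70, and their ranks moved in opposite ways between the replicates. dnj-12 ranked 214 in replicate 1 (signal 63.7) and 1718 in replicate 2 (signal 33.5). dnj-19 ranked 1074 in replicate 1 (signal 31.1) and 377 in replicate 2 (signal 63.1). dnj-14, the worm's cysteine-string protein gene, ranked 624 in replicate 1 (signal 39.2) and 464 in replicate 2 (signal 57.3). Of the 23 dnj- genes that were not bound, dnj-29 came nearest to the threshold, at rank 1392 with signal 58.8.

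Each replicate on its own gave a similar set. In the 660 strongest peaks of replicate 1, 13 of the 65 genes were bound, where 2.81% of all genes were. In those of replicate 2 there were 14, where 2.74% of all genes were. Of the 15 genes, 12 were bound in both, cct-7 and dnj-19 were missing from replicate 1, and dnj-12 from replicate 2. Neither replicate added a gene. For all 15 summits each full replicate list held a peak whose summit was at most 100 bp away. The thresholded list was drawn from these same libraries, so this is no independent repeat.

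**Figure D3:**
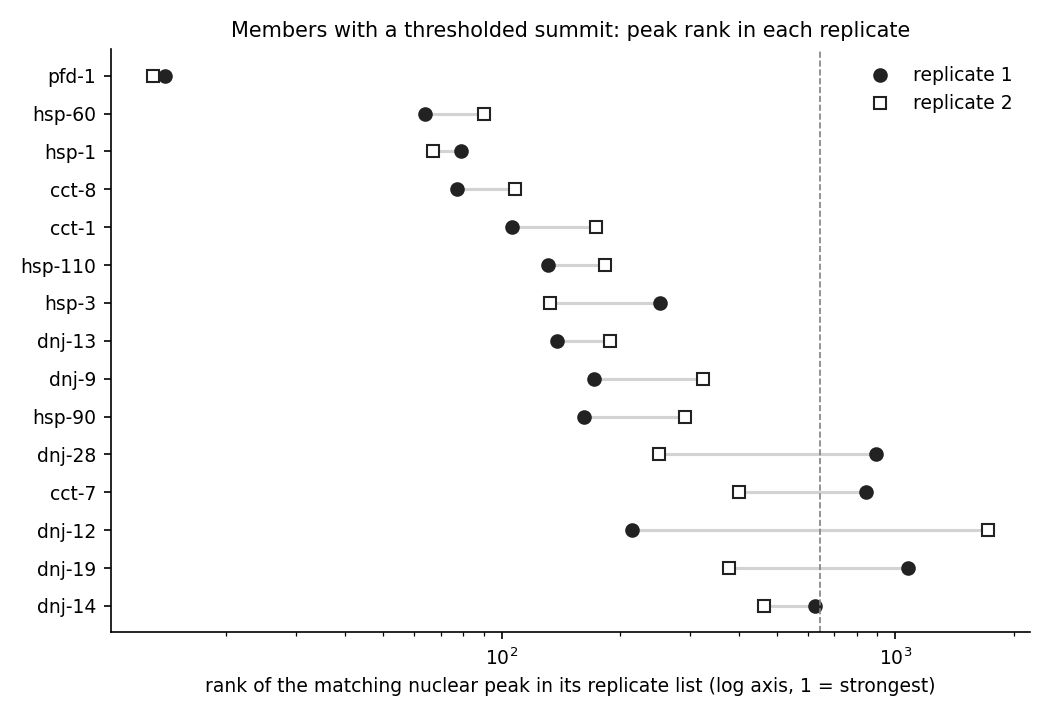
Rank, on a log axis, of the nuclear peak within 100 bp of each gene's strongest thresholded summit, in the full list of replicate 1 (filled circles) and replicate 2 (open squares). The dashed line is rank 642. The 10 strongest genes lie left of it in both replicates, and dnj-28, cct-7, dnj-12 and dnj-19 each cross it in 1 replicate, dnj-12 in replicate 2 and the others in replicate 1.

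Signals had a gap below the threshold. The last bound gene, dnj-14, had signal 91.3 at rank 534 of the pooled nuclear peaks, and the next, dnj-29 and pfd-5, followed at ranks 1392 and 1402 with signals of 58.8 and 58.6. Pooled ranks 643 to 1284 held the strongest summit of 0 of the 65 genes and of 419 genes in all (2.10%). At so low a share few of the 65 would fall there, so the gap is not read as a trait of these genes. Ranks 1285 to 5000 then held that of 14 of the 65 (21.5%) against 7.52% of all genes. With every background call counted, 36 of the 65 genes (55.4%) had a pooled summit, where 25.4% of all genes had one. In the full replicate lists the counts were 35 in replicate 1, where 28.1% of all genes had a summit, and 40 in replicate 2, where 28.3% had one. No list had a summit for 21 of the 65 genes. The share of all genes without one in any list was not computed, so this count has no background beside it. The 21 include hsp-16.1, hsp-16.11, hsp-16.48 and hsp-16.49, whose windows are almost wholly repeated sequence. Some of the 21 lie close behind a gene on the same strand, such as dnj-2 (97 bp) and hsp-75 (99 bp). Others do not, such as dnj-27 (28544 bp).

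Constitutive chaperones were then set beside the stress-induced hsp-16 genes. hsp-1, hsp-60 and the cct- genes gave 5 of 10 bound, and the hsp-16 genes 0 of 6, where 2.79% of all genes were bound. With each summit given to its nearest 5′ end only, 1 of the 10 stayed bound, hsp-1, where 1.91% of all genes were. The hsp-16 genes stand as divergent pairs on V, and only 1 pair can be judged, too few genes for a count of 0 to set a limit. In the windows of hsp-16.1, hsp-16.11, hsp-16.48 and hsp-16.49, 93.3 to 100% of the 31-base words also occur elsewhere in the genome, since this pair is an inverted duplication. How the submitters treated reads that fit several places is not given in the sources used here. These 4 genes had no summit in any list, which cannot be told apart from reads being discarded. In the windows of hsp-16.2 and hsp-16.41 the share of repeated words was 3.07% and 3.93%. Both windows held the same pooled summit of signal 34.1 at rank 6138, where the median of the pooled list was 32.2. The hsp-16.41 window held another of signal 32.2 at rank 7327. In replicate 1 their strongest summit had signal 18.3 at rank 5434. In replicate 2 hsp-16.2 had signal 18.4 at rank 10935 and hsp-16.41 signal 25.3 at rank 4133. Both pooled values were close to the median of the list, while the 5 bound constitutive genes had pooled signals from 98.3 to 289. Of the 5 constitutive genes that were not bound, 3 had signals of 31.2 to 43.5, a range that includes the hsp-16.2 value. Outside the hsp-16 group, 2 other small heat shock genes had pooled summits, hsp-43 with signal 38.8 at rank 4088 and hsp-25 with signal 38.4 at rank 4180. Among those of the 65 genes with under 20% repeated words, 14 of 56 (25%) were bound. The share of all genes under the same filter was not computed, so this count has no background beside it.

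Most summits lay between head-to-head genes. Of the 15 bound genes, 13 were divergent, with a neighbour's 5′ end on the other strand at most 2000 bp upstream, as were 23 of the 50 others. Such genes made up 55.4% of the 65 and 29.3% of all genes. Within them, 13 of 36 (36.1%) were bound against 6.11% of all divergent genes, and among the remaining genes 2 of 29 (6.90%) against 1.42%. In 12 of the 15 cases another protein-coding gene's window held the same summit, and for 9 of the 15 that other gene had the nearer 5′ end. The difference was small for cct-1, 229 bp against 191 bp to mig-5, a dishevelled homologue. It was also small for hsp-110, 251 bp against 193 bp to rpn-3, a proteasome subunit gene. For cct-8 it was larger, 428 bp against 193 bp to Y55F3AR.2, which RefSeq describes as a thioredoxin domain protein. The dnj-19 summit lay in an exon of nhr-47, 35 bp downstream of its 5′ end. Assigned to the nearest 5′ end only, 6 of the 65 genes (9.23%) kept a summit, against 1.91% of all genes: hsp-1, hsp-3, dnj-9, dnj-12, dnj-13 and dnj-28. Which gene of a pair a peak acts on was not tested.

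**Figure D4:**
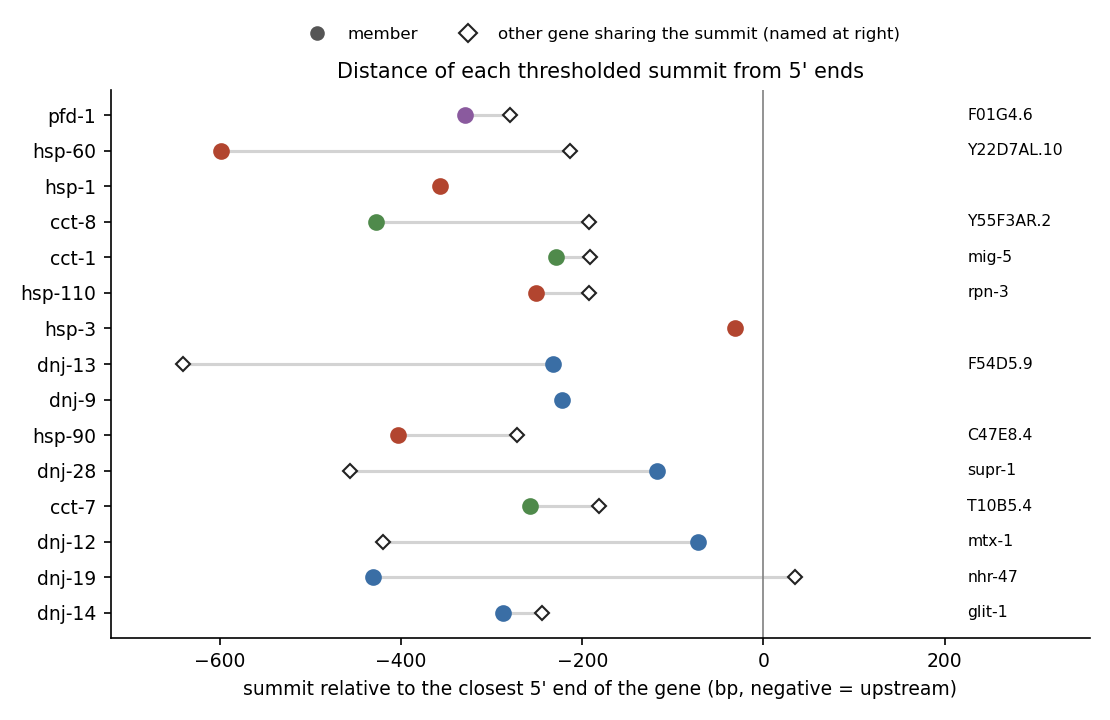
Distance of each strongest thresholded summit from the closest 5′ end of the chaperone gene (circles) and of the gene that shares it (diamonds, named at right), in bp with negative values upstream. All 15 circles lie upstream of that 5′ end, from 31 to 599 bp, although the hsp-90 summit is in an intron of its gene, and hsp-1, hsp-3 and dnj-9 share their summit with no gene.

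All 15 summits lay upstream of the closest annotated 5′ end of their gene, at a median of 258 bp, close to the 260 bp of all 558 bound genes. The hsp-90 summit is also 839 bp inside the gene, in an intron, because hsp-90 has another 5′ end farther upstream. Of the strongest summits 12 were intergenic, 2 intronic and 1 exonic, and none was within 250 bp of a tRNA, snoRNA, snRNA or rRNA gene. The median signal of these strongest summits, 1 per bound gene, was 172. It was 119 for all 396 thresholded peaks in promoter windows, which include them and the weaker dnj-28 summit.

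The sequence under the peaks differed from that under other promoter peaks. Within 100 bp of the summit, GAANNTTC lay at 9 of the 16 summits in these windows (56.3%), at 31 of the 380 other summits in promoter windows (8.16%) and at 9.50% of all 642. The 9 genes were hsp-1, hsp-60, hsp-90, hsp-110, cct-1, cct-8, dnj-12, dnj-13 and dnj-19. The centre of the closest match was 6.5 bp from the summit at hsp-1, 17.5 bp at hsp-90, 22.5 bp at hsp-110 and 30.5 bp at dnj-12. It was 40.5 bp away at cct-1, 46.5 bp at cct-8 and 49.5 bp at dnj-13. At hsp-60 (94.5 bp) and dnj-19 (96.5 bp) it was near the edge of the stretch. The distances thus ran from 6.5 to 96.5 bp, and closeness to the summit was not tested. At pfd-1, the strongest peak, no match lay within 500 bp, and none did at hsp-3 or dnj-28. A longer form, in which another GAA follows after any 2 bases on either strand, lay at 3 of the 16 summits (hsp-60, hsp-110 and dnj-12), at 4 of the 380 (1.05%) and at 1.71% of all. ACGCAG, searched on both strands, was chosen because it led the words at all summits in an earlier analysis of these data, so its high share there is no finding. It lay at 1 of the 16 summits (hsp-3), at 98 of the 380 (25.8%) and at 26.0% of all. Base composition was similar, with a median of 45.3% G and C at the 16 summits and 46.3% at all.

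Promoters were searched for the same words whether bound or not. In the 250 bases before and the first 50 bases from each 5′ end, GAANNTTC lay in 10 of 15 bound genes (66.7%) and in 22 of 50 others (44%). Of all promoters 22.8% held it, and of all bound genes 29.6%. In the windows of 1000 bp upstream to 200 bp downstream it lay in 14 of the 15 and in 37 of the 50, against 61.4% of all genes. The longer form lay in 5 of the 15 promoters, those of hsp-1, hsp-3, hsp-90, hsp-110 and dnj-12, and in 7 of the 50, against 2.53% of all genes and 4.84% of all bound genes. Within 100 bp of the summit it lay at hsp-110 and dnj-12 but not at hsp-1, hsp-3 or hsp-90. The 7 genes not bound were hsp-70 and the 6 hsp-16 genes. The 5′ ends of an hsp-16 pair are 221 to 349 bp apart, so the promoters of a pair overlap. Those of hsp-16.1, hsp-16.11, hsp-16.48 and hsp-16.49 are also copies of one another. The 6 are therefore not separate sequences, and they enter the 22 and the 37 of 50 as well. In the hsp-16.2 and hsp-16.41 promoters, whose windows hold little repeated sequence, GAANNTTC, the longer form and ACGCAG were thus present without a thresholded summit. A match is a string of letters and no measured site of any factor.

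Other genes of protein quality control, 44 on a list that shares none of the 65, were bound in 11 cases (25%), ubql-1 and pdi-3 by the same summit, where 2.79% of all protein-coding genes were. The list was picked by hand with earlier results of these data known. Its share is therefore a description and no independent support for the counts above. The genes for nascent chain binding were both bound. icd-2, the alpha subunit gene of the nascent polypeptide-associated complex, had signal 1884 at rank 15, just below pfd-1. It ranked 13 in replicate 1 (signal 934) and 15 in replicate 2 (signal 956). icd-1, the beta subunit gene, had signal 174 at rank 153. cdc-48.1, an AAA unfoldase gene, had signal 701 at rank 32, the 1 of 7 bound among unfoldases and proteases. In the endoplasmic reticulum 4 of 8 folding genes were bound, enpl-1, crt-1, pdi-3 and pdi-6, with signals of 91.9 to 154. Of 14 genes listed as cochaperones, sip-1 and png-1 among them, bag-1 (signal 147) and ubql-1 were bound, the latter by the summit it shares with pdi-3. Of 13 stress regulators, xbp-1 (signal 116) and atf-6 (signal 92.1) were bound. Both act in the endoplasmic reticulum's unfolded protein response, whose other sensors ire-1 and pek-1 had no thresholded or pooled summit. hsf-1 itself had a pooled signal of 30.4 at rank 8694 and no summit in replicate 2.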

How the data were processed

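Anti-GFP ChIP-seq of ZFP-2 in 2 biological replicates had been deposited as peak lists. Per the series' description file, the authors called peaks with background calls for each replicate and for both pooled, and thresholded them by IDR. The signal of each peak is the authors' deposited value, used only within a list. For the aligner, caller, IDR threshold and handling of repeated reads, the sources used here give nothing. The thresholded ce10 list holds 871 peaks, and only its length was used.

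Coordinates are 1-based on ce11, whose sequence is that of WBcel235, with Ensembl release 115 genes and 29784 5′ ends. The summit is the start plus the deposited offset. Summits were assigned to every window that held them. Window assignment was checked on 200 planted summits, and 200 were recovered. With no contrast and members chosen by symbol, no test was run, and shares stand beside those of all genes. The genes, lists and words were chosen with earlier results of these data known. Values are given in full for bound genes and for the hsp-1, hsp-60, cct-, pfd- and hsp-16 genes, with those nearest the threshold. The longer word, the summit sequences, repeated words and divergent strata were added after seeing the data. Gene products and the genome are RefSeq's, and RefSeq names tell hsp-16.11 and hsp-16.49 from their copies. Scripts ran under Python 3.11.15 with pandas 2.3.3 and numpy 2.4.6, and figures were drawn with matplotlib 3.10.9.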

Additional observations from a re-analysis of the deposited data

How the results depend on the processing

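Of the settings tried, assigning each summit to the nearest 5′ end moved the counts most downward: 6 of the 65 genes were then bound, and 1 of the 10 constitutive genes, hsp-1. That setting drops a gene where a neighbour has the nearer 5′ end. Of all genes 381 (1.91%) were then bound, where 558 (2.79%) were in the main setting, so the drop was larger among the 65. The whole pooled list, background calls included, gave 36 genes, 8 constitutive genes and 2 hsp-16 genes. The narrower window (500 bp upstream, 100 bp downstream) gave 14 genes, losing hsp-60, where 2.13% of all genes were bound. The 330 strongest thresholded peaks gave 10, where 1.57% of all genes were bound. The count was 15 with any peak overlap, where 3.03% of all genes were bound, and without summits near tRNA genes, where 2.63% were. It was also 15 in the 871 strongest pooled peaks, where 3.58% of all genes were bound. That length is as many as the ce10 list held and was chosen after seeing the data. A still longer stretch of the pooled list gave 15 as well, where 4.93% of all genes were bound. With longer lists the share of all genes thus rose from 2.79% while the count among the 65 stayed the same, so the contrast between them shrank. With 1 replicate left out and the 660 strongest peaks of the other used, 13 to 14 genes, 4 to 5 constitutive genes and 0 hsp-16 genes were bound. Nearest assignment and the whole pooled list apart, no setting moved any of these 3 counts by over 1.5 times. The 330 strongest peaks did move the bound dnj- genes from 6 to 2 and the distinct summits from 16 to 10. By nearest assignment 2 hsp- genes, 0 cct- genes and 0 pfd- genes were bound. No paired analysis was possible because the samples form 1 group. Read depth is unknown, so no interval from counts could be given, and the limits beside counts of 0 cover counting error only.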
